A study of Rattus norvegicus with 9 samples.

Results

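The miR-181 family was followed through small RNA libraries of rat aortic vascular smooth muscle cells. The 9 arms described here were taken by name from the count table: the guide arms rno-miR-181a-5p, rno-miR-181b-5p, rno-miR-181c-5p and rno-miR-181d-5p, and the passenger arms rno-miR-181a-1-3p, rno-miR-181a-2-3p, rno-miR-181b-1-3p, rno-miR-181b-2-3p and rno-miR-181c-3p. They are written without the rat prefix from here on. All 9 were found in the table of 762 mature miRNAs, 502 of them with a count, and 8 of the 9 passed the filter on low counts. A 10th arm in the table, miR-181d-3p, was not among the arms chosen.

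Cultured cells were compared in 3 states, with 3 libraries each. Edited cells had taken up a lentivirus for expression of Myocardin-F-LSD1, the labels' name for the construct, and their titles describe them as H3K4me2-edited and de-differentiated. Myocardin switches on contractile genes together with serum response factor, and LSD1 takes methyl groups off lysine 4 of histone H3. PDGF-BB cells were exposed to the BB form of platelet-derived growth factor, which drives smooth muscle cells to divide and migrate, at 30 ng/ml over 24 h, and their titles also call them de-differentiated. Differentiated cells received no treatment. The protocol text, repeated for every sample, mentions 24 h without serum before treatment, and whether edited and differentiated cells were starved is not stated. Empty-vector libraries were not analysed here, so transduction and construct cannot be told apart. The labels name neither the promoter of the construct nor the number of cell isolates, and they do not say that replicates are separate cultures. The p-values therefore rest on differences between libraries of a group, and these may be technical.

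A miRNA is cut from a hairpin in its primary transcript, which leaves a short duplex of a 5p and a 3p arm. One arm, the guide, is loaded into Argonaute and pairs with messenger RNAs mainly through its seed, bases 2 to 8, while the other arm, the passenger, is mostly degraded. Rodent genomes hold 3 miR-181 loci, each with a pair of hairpins. Where hairpins of different loci yield the same guide, the passenger arms tell those loci apart. The guides miR-181c-5p and miR-181d-5p each come from a hairpin of their own. In mice, miR-181a tunes the sensitivity of the T-cell receptor in developing thymocytes. miR-181b represses importin-alpha3 in endothelium and thereby limits nuclear entry of NF-kappaB, and it targets TIMP-3 and elastin in the mouse arterial wall.

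The 4 guide arms are printed because their near identity decides how far their counts can be separated. The sequences are those of RefSeq, from a table of assembly GRCr8, in which 8 of the 9 arms had a mature sequence. Each runs 5′ to 3′ in lower case with the seed in capitals.
miR-181a-5p: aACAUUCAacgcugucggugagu
miR-181b-5p: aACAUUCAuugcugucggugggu
miR-181c-5p: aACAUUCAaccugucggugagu
miR-181d-5p: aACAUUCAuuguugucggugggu
All 4 guides carry the seed ACAUUCA, which no other arm in the RefSeq table of 693 mature rat arms shares. Counted from 1 at the 5′ end, miR-181b-5p differs from miR-181a-5p by A9U, C10U and A21G. miR-181d-5p differs from miR-181b-5p by 1 base, C12U, and miR-181c-5p lacks base 11 of miR-181a-5p, a G. The sources used here do not say how reads that fit more than 1 of these guides were assigned, so the split of counts between miR-181b-5p and miR-181d-5p, and between miR-181a-5p and miR-181c-5p, is uncertain.

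The passenger arms are shown because they name the locus of origin.
miR-181a-1-3p: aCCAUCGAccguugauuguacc
miR-181b-1-3p: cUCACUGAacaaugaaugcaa
miR-181a-2-3p: aCCACCAAccguugacugu
miR-181c-3p: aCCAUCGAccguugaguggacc
miR-181a-1-3p and miR-181b-1-3p come from Mir181a-1 and Mir181b1 on chromosome 13, called the a-1/b-1 locus from here on. miR-181a-2-3p comes from Mir181a2 on chromosome 3, beside Mir181b2, the a-2/b-2 locus. miR-181c-3p comes from Mir181c on chromosome 19, beside Mir181d, the c/d locus. All 6 genes lie on the + strand of GRCr8. miR-181a-1-3p and miR-181c-3p share the seed CCAUCGA and differ by U16G and U19G, while the seeds of miR-181a-2-3p and miR-181b-1-3p differ from it and from each other. How reads close to both miR-181a-1-3p and miR-181c-3p were assigned is likewise not said in the sources. miR-181b-2-3p is named only. The hairpins of Mir181a2 and Mir181c, with the mature arms in capitals, show how a guide and a locus-specific passenger leave the same precursor.
Mir181a2: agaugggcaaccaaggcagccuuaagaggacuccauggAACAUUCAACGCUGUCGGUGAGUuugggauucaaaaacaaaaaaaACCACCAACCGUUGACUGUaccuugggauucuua
Mir181c: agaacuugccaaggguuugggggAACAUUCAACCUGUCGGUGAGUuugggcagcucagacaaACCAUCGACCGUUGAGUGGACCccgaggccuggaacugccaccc

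Library totals ran from 3149262 to 11392178 counts in edited cells, from 1982051 to 3568888 in PDGF-BB cells and from 1783409 to 3850232 in differentiated cells. Levels are CPM, counts scaled to a common library total with TMM factors. Changes are log2 fold changes with their SE, tested by the quasi-likelihood test of edgeR with Benjamini-Hochberg adjustment over the 304 miRNAs tested and 0.05 as the threshold. The smooth muscle markers miR-143 and miR-145 summed, over their 4 arms, to 37109 to 63120 CPM in edited, 133175 to 171204 CPM in PDGF-BB and 214852 to 251402 CPM in differentiated libraries. The endothelial arms of miR-126a, 2 in number, summed to 2906 to 3346 CPM in edited, 1791 to 1895 CPM in PDGF-BB and 1760 to 2146 CPM in differentiated libraries. The 7 blood cell arms summed to 76.1 to 98.4 CPM in edited, 49.0 to 64.7 CPM in PDGF-BB and 47.6 to 72.8 CPM in differentiated libraries. Of these, miR-223-3p, miR-451-5p, miR-144-3p and miR-486 had 0 to 3 counts in each library. miR-150-5p averaged 67.9 CPM in edited, 31.9 CPM in PDGF-BB and 26.9 CPM in differentiated cells. In the same order miR-142-3p averaged 16.7, 19.6 and 23.9 CPM, and miR-142-5p 3.46, 4.73 and 5.65 CPM. The 5 epithelial arms summed to 20.2 to 39.4 CPM in edited, 35.9 to 49.6 CPM in PDGF-BB and 73.7 to 102 CPM in differentiated libraries. This sum pools arms that moved apart. miR-200a-3p, miR-200b-3p and miR-429 averaged 2.40, 0.545 and 0.654 CPM in edited and 53.3, 12.8 and 19.2 CPM in differentiated cells. miR-200c-3p and miR-141-3p averaged 9.31 and 16.2 CPM in edited and 1.39 and 4.24 CPM in differentiated cells. The 4 neural arms summed to 833 to 1030.4 CPM in edited, 766 to 840 CPM in PDGF-BB and 717 to 849 CPM in differentiated libraries. Most of this was miR-128-3p, with means of 801 CPM in edited, 780 CPM in PDGF-BB and 753 CPM in differentiated cells. In the same order miR-9a-5p averaged 133, 25.1 and 32.4 CPM, and miR-9a-3p 11.7, 4.22 and 4.46 CPM. The neuronal miR-124-3p had 0 counts in all 9 libraries. The part of such other cells in the results below was not tested. In RNA of whole cultures, fewer cells of a type and less RNA per cell cannot be told apart.

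The arms of the family did not move as one. In edited against differentiated cells, miR-181a-5p, miR-181b-5p and both passengers of the a-1/b-1 locus rose, whereas miR-181a-2-3p, miR-181c-5p and miR-181d-5p fell. In PDGF-BB against differentiated cells, miR-181b-5p and both passengers of the a-1/b-1 locus rose, and no arm passed the threshold as lower. There the c/d arms miR-181c-5p, miR-181c-3p and miR-181d-5p lay at -0.72, -0.62 and -0.53 without passing. In edited against differentiated cells they lay at -0.74, -0.39 and -0.87. Between edited and PDGF-BB cells, miR-181a-5p rose and miR-181a-2-3p and miR-181b-5p fell. Of the 9 fits that left out 1 library, 6, 5 and 0 kept these calls, in that order.

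These calls have to be read against how much of the table changed. In edited against differentiated cells 4 of 8 tested arms were higher and 3 lower, where 32.2% of all tested miRNAs were higher and 27% lower (59.2% in either direction). In PDGF-BB against differentiated cells 3 arms were higher and 0 lower, where 7.24% of all were higher and 2.96% lower (10.2% in either direction). In that comparison miR-181c-5p, miR-181c-3p and miR-181d-5p had unadjusted edgeR p-values of 0.0358, 0.0313 and 0.0486, and none passed after adjustment. DESeq2 also made no call of a lower arm there. Of the arms in edited against PDGF-BB cells 1 was higher and 2 were lower, where 28% of all were higher and 30.9% lower (58.9% in either direction). The libraries of the groups did not overlap for 6 of 8 arms in edited against differentiated cells (63.5% of all tested miRNAs), 6 of 8 in PDGF-BB against differentiated cells (35.2%) and 4 of 8 in edited against PDGF-BB cells (60.2%). The median log2 fold change of the 8 arms was -0.04, -0.05 and -0.10 in these 3 comparisons, beside -0.01, 0.03 and -0.02 over all tested miRNAs.

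**Figure D1:**
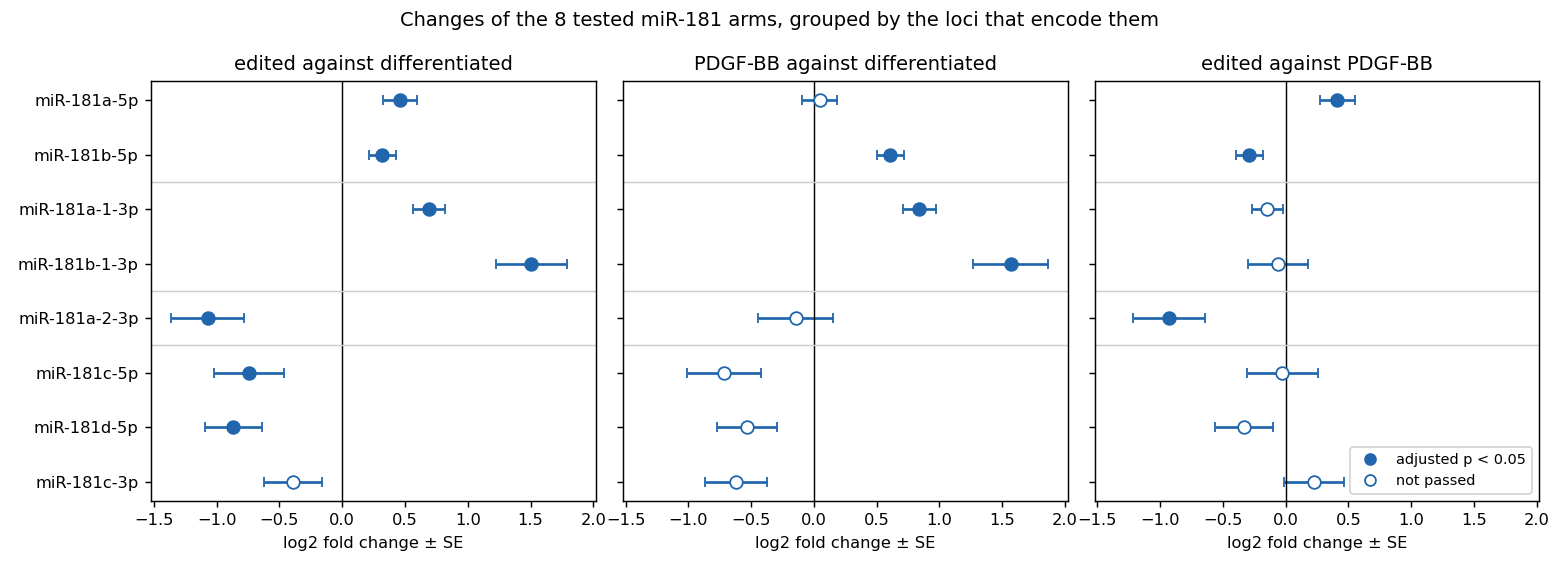
Log2 fold change ± SE (x axis) of the 8 tested miR-181 arms (down the page, guides shared by loci first, then the a-1/b-1, a-2/b-2 and c/d loci) in the 3 comparisons, from the edgeR quasi-likelihood test. Filled points passed the adjusted threshold of 0.05 and open points did not. The a-1/b-1 passengers lie right of 0 in both comparisons with differentiated cells, while the arms of the a-2/b-2 and c/d loci lie left of it on this TMM scale (miR-181c-3p in edited against differentiated cells is at 0.05 with library totals).

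Scaling bears on these directions. Library totals in place of TMM factors moved the median change of all miRNAs by 0.45 in edited against differentiated cells, 0.13 in PDGF-BB against differentiated cells and 0.32 in edited against PDGF-BB cells. The split of higher to lower miRNAs was 98 to 82 with TMM and 151 to 40 with library totals in the first of these comparisons, 22 to 9 and 24 to 2 in the second, and 85 to 94 and 124 to 52 in the third. Changes below are on the TMM scale, that is, relative to the bulk of the miRNAs.

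miR-181a-5p was the most abundant arm of the family in each library. It had 440, 499 and 405 CPM in edited libraries, 372, 326 and 314 CPM in PDGF-BB libraries, and 382, 304 and 292 CPM in differentiated libraries, from 540 to 7326 counts. The 3 edited libraries lay above the 6 others, and PDGF-BB and differentiated libraries overlapped. It ranked 86th of 474 miRNAs with a count by its mean level in edited cells, 92nd of 455 in PDGF-BB cells and 88th of 442 in differentiated cells. The log2 fold change was 0.46 ± 0.14 in edited against differentiated cells (edgeR adjusted p = 0.0170) and 0.41 ± 0.14 in edited against PDGF-BB cells (edgeR adjusted p = 0.0258). Each of these calls held in 6 of the 9 fits that left out 1 library. The first was lost without edited replicate 2, differentiated replicate 2 or differentiated replicate 3, with an adjusted p of up to 0.104. The second was lost without edited replicate 2, PDGF-BB replicate 2 or PDGF-BB replicate 3, with an adjusted p of up to 0.0917. In PDGF-BB against differentiated cells the value was 0.05 ± 0.14 (edgeR adjusted p = 0.870), and it was -0.01 with RLE factors and -0.02 with DESeq2.

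miR-181b-5p, the guide studied in endothelium, had a different order of groups. It had 116, 118 and 106 CPM in edited libraries, 142, 137 and 137 CPM in PDGF-BB libraries, and 94.0, 92.2 and 86.6 CPM in differentiated libraries. The 3 groups did not overlap, with PDGF-BB cells highest and edited cells between. The log2 fold change was 0.61 ± 0.11 in PDGF-BB against differentiated cells (edgeR adjusted p = 0.00917), a 1.52-fold rise, and this call was lost in 1 of 9 fits, without differentiated replicate 3. In edited against differentiated cells it was 0.32 ± 0.11 (edgeR adjusted p = 0.0284), a call lost without edited replicate 2, differentiated replicate 2 or differentiated replicate 3, and in a fit of the 6 compared libraries alone (adjusted p = 0.0753). In edited against PDGF-BB cells it was -0.29 ± 0.11 (edgeR adjusted p = 0.0381). That fall held in 0 of the 9 fits without 1 library, where the adjusted p lay between 0.0683 and 0.184. It was also lost with RLE factors (0.0618), without a filter on low counts (0.405), in a fit of the 6 compared libraries alone (0.107) and with DESeq2 (0.111), and its direction turned with library totals, to 0.03.

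The guides of the c/d locus were scarcer. miR-181c-5p had 20.8, 13.8 and 11.2 CPM in edited libraries, 13.8, 16.5 and 15 CPM in PDGF-BB libraries, and 34.4, 23.1 and 18.4 CPM in differentiated libraries. Edited replicate 1 reached into the differentiated range, and the PDGF-BB libraries lay below all 3 differentiated ones. The log2 fold change was -0.74 ± 0.28 in edited against differentiated cells (edgeR adjusted p = 0.0411), past the threshold in 2 of the 9 fits without 1 library, and -0.72 ± 0.30 in PDGF-BB against differentiated cells (edgeR adjusted p = 0.167). The call was lost without differentiated replicate 1 or 2, edited replicate 2 or 3, or any 1 of the PDGF-BB libraries, with an adjusted p of up to 0.247. It was also lost with library totals (-0.29, adjusted p = 0.389), without a filter on low counts (-0.63, 0.0931) and in a fit of the 6 compared libraries alone (-0.77, 0.0753). miR-181d-5p had 25.5, 17.1 and 15.8 CPM in edited libraries, 17.7, 25.8 and 27.8 CPM in PDGF-BB libraries, and 32.4, 38.4 and 33.0 CPM in differentiated libraries. All 3 differentiated libraries lay above the 6 others. Its log2 fold change was -0.87 ± 0.23 in edited against differentiated cells (edgeR adjusted p = 0.00946), lost without edited replicate 2 or differentiated replicate 2 and with library totals (-0.42, adjusted p = 0.167), and -0.53 ± 0.24 in PDGF-BB against differentiated cells (edgeR adjusted p = 0.199). Neither guide passed in edited against PDGF-BB cells, with -0.03 ± 0.28 for miR-181c-5p and -0.33 ± 0.23 for miR-181d-5p (edgeR adjusted p of 0.959 and 0.248).

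The third arm of the c/d locus, the passenger miR-181c-3p, was about as abundant as its guide. It had 22.1, 13.6 and 13.0 CPM in edited libraries, 12.7, 12.9 and 14.7 CPM in PDGF-BB libraries, and 19.2, 22.8 and 20.02 CPM in differentiated libraries. Edited replicate 1 again lay within the differentiated range, while edited replicates 2 and 3 lay with the PDGF-BB libraries. The log2 fold change was -0.39 ± 0.23 in edited against differentiated cells (edgeR adjusted p = 0.162), -0.62 ± 0.25 in PDGF-BB against differentiated cells (0.161) and 0.23 ± 0.24 in edited against PDGF-BB cells (0.438). With library totals the sign of the first value turned, to 0.05, and without edited replicate 1 it was -0.63 ± 0.17 (edgeR adjusted p = 0.00923). The second value also passed without edited replicate 1, at -0.66 ± 0.18 (edgeR adjusted p = 0.0306). In edited against differentiated cells that fit put miR-181c-5p at -0.96 and miR-181d-5p at -1.06.

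**Figure D2:**
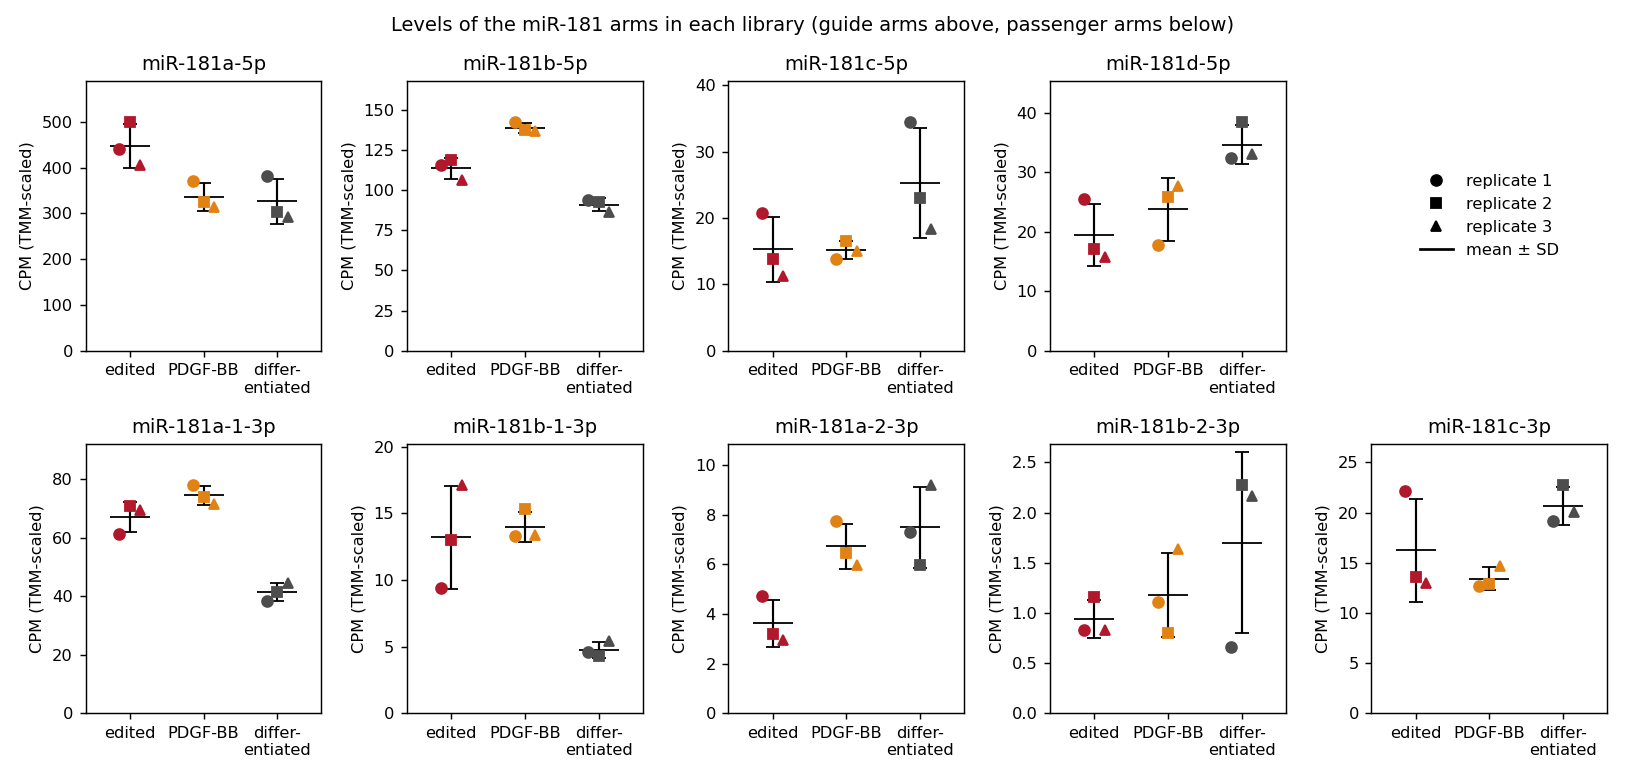
Level of each of the 9 miR-181 arms in each library (y axis, CPM scaled by TMM factors, linear from 0 with its own range in each panel), guides in the upper panels and passengers in the lower ones. Points are libraries, marked by replicate, and bars are the mean ± SD of 3 libraries. miR-181b-1-3p stood at 9.41 to 17.1 CPM in edited and 13.3 to 15.3 CPM in PDGF-BB libraries, above 4.27 to 5.41 CPM in differentiated libraries.

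The passengers of the a-1/b-1 locus rose in edited and in PDGF-BB cells. miR-181a-1-3p had 61.2, 70.6 and 69.2 CPM in edited libraries, 78.0, 73.7 and 71.6 CPM in PDGF-BB libraries, and 38.4, 41.6 and 44.4 CPM in differentiated libraries. Each of the 6 edited and PDGF-BB libraries lay above the highest differentiated one. Its log2 fold change was 0.69 ± 0.13 in edited against differentiated cells (edgeR adjusted p = 0.00133) and 0.84 ± 0.13 in PDGF-BB against differentiated cells (edgeR adjusted p = 0.00645), which is 1.62-fold and 1.79-fold. It was the member that kept both calls in all 9 fits without 1 library. miR-181b-1-3p was rarer, with 34, 191 and 145 counts in edited, 24, 38 and 49 in PDGF-BB and 7, 15 and 10 in differentiated libraries, or 9.41, 13.0 and 17.1 CPM, 13.3, 15.3 and 13.3 CPM, and 4.63, 4.27 and 5.41 CPM. Here too the differentiated libraries lay below the 6 others. Its log2 fold change was 1.51 ± 0.28 in edited against differentiated cells (edgeR adjusted p = 0.00147), kept in all 9 fits without 1 library, and 1.57 ± 0.30 in PDGF-BB against differentiated cells (edgeR adjusted p = 0.00986), kept in 7. The second call was lost without differentiated replicate 2 or 3, with an adjusted p of up to 0.0522. Neither passenger passed in edited against PDGF-BB cells, with -0.15 ± 0.12 for miR-181a-1-3p and -0.06 ± 0.24 for miR-181b-1-3p (edgeR adjusted p of 0.337 and 0.970).

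The a-2/b-2 locus, whose miR-181a-2 hairpin gives the same guide as miR-181a-1, had a passenger that fell in edited cells. miR-181a-2-3p had 17, 47 and 25 counts in edited, 14, 16 and 22 in PDGF-BB and 11, 21 and 17 in differentiated libraries. In CPM this was 4.71, 3.20 and 2.95 in edited, 7.74, 6.45 and 5.99 in PDGF-BB, and 7.28, 5.98 and 9.20 in differentiated libraries. The edited libraries lay below the 6 others, and the other 2 groups overlapped. The log2 fold change was -1.07 ± 0.29 in edited against differentiated cells (edgeR adjusted p = 0.0101), lost without differentiated replicate 3 (adjusted p = 0.0609). It was -0.93 ± 0.28 in edited against PDGF-BB cells (edgeR adjusted p = 0.0181), kept in 5 of 9 fits and lost without edited replicate 2 or 3 or PDGF-BB replicate 1 or 2. It was -0.14 ± 0.30 in PDGF-BB against differentiated cells (edgeR adjusted p = 0.808). With library totals both calls in edited cells were lost, at -0.62 and -0.61 (adjusted p of 0.0808 and 0.0844). The call against PDGF-BB cells was also lost without a filter on low counts (adjusted p = 0.0576) and with DESeq2 (0.0524). The b passenger of the locus, miR-181b-2-3p, had 3, 17 and 7 counts in edited, 2, 2 and 6 in PDGF-BB and 1, 8 and 4 in differentiated libraries, which is too few for the filter. Its levels overlapped between all 3 groups, at 0.827 to 1.16 CPM in edited, 0.806 to 1.63 CPM in PDGF-BB and 0.662 to 2.28 CPM in differentiated libraries.

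Whether arms of one family changed unequally was tested directly, in fits where the count of 1 arm in each library served as the offset for all other miRNAs, so that scaling between libraries has no part in the value. Relative to miR-181a-5p, 5 arms passed in edited against differentiated cells, where 59.7% of 303 miRNAs passed (13.9% higher, 45.9% lower). miR-181a-2-3p (-1.56 ± 0.36, edgeR adjusted p = 0.00221), miR-181d-5p (-1.34 ± 0.29, 0.00126), miR-181c-5p (-1.19 ± 0.28, 0.00252) and miR-181c-3p (-0.86 ± 0.29, 0.0196) fell, and miR-181b-1-3p (1.03 ± 0.36, 0.0224) rose. The first 3 of these calls held in all 9 fits without 1 library, that of miR-181c-3p in 5 and that of miR-181b-1-3p in 6. Edited replicate 2 or 3 and differentiated replicate 2 or 3 each ended the call of miR-181c-3p when left out, and edited replicate 3 and differentiated replicate 1 or 2 that of miR-181b-1-3p. miR-181a-1-3p (0.21 ± 0.22, 0.398) and miR-181b-5p (-0.15 ± 0.19, 0.497) did not differ from the change of miR-181a-5p by an amount that passed.

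In PDGF-BB against differentiated cells 1 arm passed relative to miR-181a-5p, where 4.95% of 303 miRNAs passed and 3.96% were higher. This was miR-181b-1-3p (1.5 ± 0.37, edgeR adjusted p = 0.0241), kept in 4 of 9 fits and lost without PDGF-BB replicate 2 or 3 or any 1 differentiated library. miR-181a-1-3p stood at 0.77 ± 0.22 (edgeR adjusted p = 0.0558). In edited against PDGF-BB cells 4 arms passed, all lower, where 52.5% of miRNAs passed (11.9% higher, 40.6% lower). They were miR-181a-2-3p (-1.35 ± 0.36, 0.00514), miR-181b-5p (-0.70 ± 0.19, 0.00524), miR-181d-5p (-0.75 ± 0.29, 0.0386) and miR-181a-1-3p (-0.56 ± 0.21, 0.0354). The first and second held in all 9 fits without 1 library. That of miR-181d-5p held in 4, lost without edited replicate 2 or 3, PDGF-BB replicate 2 or 3 or differentiated replicate 3, and that of miR-181a-1-3p in 5, lost without edited replicate 1 or 2 or PDGF-BB replicate 2 or 3. These values show unequal change of the arms and not a fall of each: that of miR-181b-5p sets its own change of -0.29 against the 0.41 of miR-181a-5p.

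The a-2/b-2 locus was the other yardstick, with the 11 to 47 counts of miR-181a-2-3p as offset, whose own counting error enters each value. In edited against differentiated cells 4 arms were higher relative to it, where 73.6% of 303 miRNAs passed (67.7% higher, 5.94% lower). They were miR-181b-1-3p (2.61 ± 0.42, edgeR adjusted p = 1.7e-05), miR-181a-1-3p (1.78 ± 0.31, 4.09e-05), miR-181a-5p (1.52 ± 0.31, 0.000177) and miR-181b-5p (1.37 ± 0.30, 0.000403), and each held in all 9 fits without 1 library. The arms of the c/d locus, at 0.15 to 0.62, did not pass. In PDGF-BB against differentiated cells 1 arm passed, where 3.63% did: miR-181b-1-3p at 1.69 ± 0.43 (edgeR adjusted p = 0.0183), kept in 4 of 9 fits and lost without PDGF-BB replicate 2 or 3 or any 1 differentiated library. miR-181a-1-3p stood at 0.97 ± 0.31 (edgeR adjusted p = 0.0954). In edited against PDGF-BB cells 5 arms were higher, where 67.7% of miRNAs passed (59.7% higher, 7.92% lower): miR-181a-5p at 1.36 ± 0.31 (edgeR adjusted p = 0.000632), miR-181c-3p at 1.11 ± 0.33, miR-181b-1-3p at 0.91 ± 0.36, miR-181c-5p at 0.86 ± 0.34 and miR-181a-1-3p at 0.81 ± 0.30. miR-181a-5p and miR-181c-3p kept the call in all 9 fits without 1 library, and the other 3 in 4 or 5. Each of these 3 lost it without edited replicate 2, PDGF-BB replicate 1 or PDGF-BB replicate 2, miR-181a-1-3p and miR-181b-1-3p also without edited replicate 3, and miR-181b-1-3p and miR-181c-5p also without PDGF-BB replicate 3.

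Ratios between arms within a library put arms of different loci side by side in plain numbers, with 0.5 added to each count. They compare counts of mature arms, and the output of the loci was not measured. For each count of miR-181a-2-3p there were 12.7, 21.8 and 23.0 of miR-181a-1-3p in edited libraries, 9.76, 11.1 and 11.7 in PDGF-BB libraries, and 5.09, 6.81 and 4.71 in differentiated libraries. No library of 1 group reached into the range of another, in the order edited, PDGF-BB, differentiated. The mean log2 ratio differed by 1.76 ± 0.32 in edited against differentiated cells, by 0.99 ± 0.18 in PDGF-BB against differentiated cells and by 0.77 ± 0.29 in edited against PDGF-BB cells. With 3 libraries against 3, an exact two-sided permutation test cannot go below p = 0.1, the value each of these reached. Over the 27 ratio tests made, 15 had groups that did not overlap, and the smallest Benjamini-Hochberg adjusted value was 0.18, so none passed.

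Among the b passengers the arm of the a-1/b-1 locus was likewise the more frequent, at lower counts. The ratio of miR-181b-1-3p to miR-181b-2-3p was 9.86, 10.9 and 19.4 in edited libraries, 9.80, 15.4 and 7.62 in PDGF-BB libraries, and 5, 1.82 and 2.33 in differentiated libraries. Edited and PDGF-BB libraries overlapped with each other and lay above the differentiated ones, each at an exact permutation p of 0.1. Within the a-1/b-1 locus, miR-181b-1-3p over miR-181a-1-3p was 0.156, 0.185 and 0.248 in edited, 0.173, 0.210 and 0.188 in PDGF-BB, and 0.128, 0.106 and 0.127 in differentiated libraries. The differentiated libraries lay below the 6 others, by 0.68 ± 0.22 for edited and 0.66 ± 0.12 for PDGF-BB cells on the log2 scale (exact permutation p of 0.1 each).

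**Figure D3:**
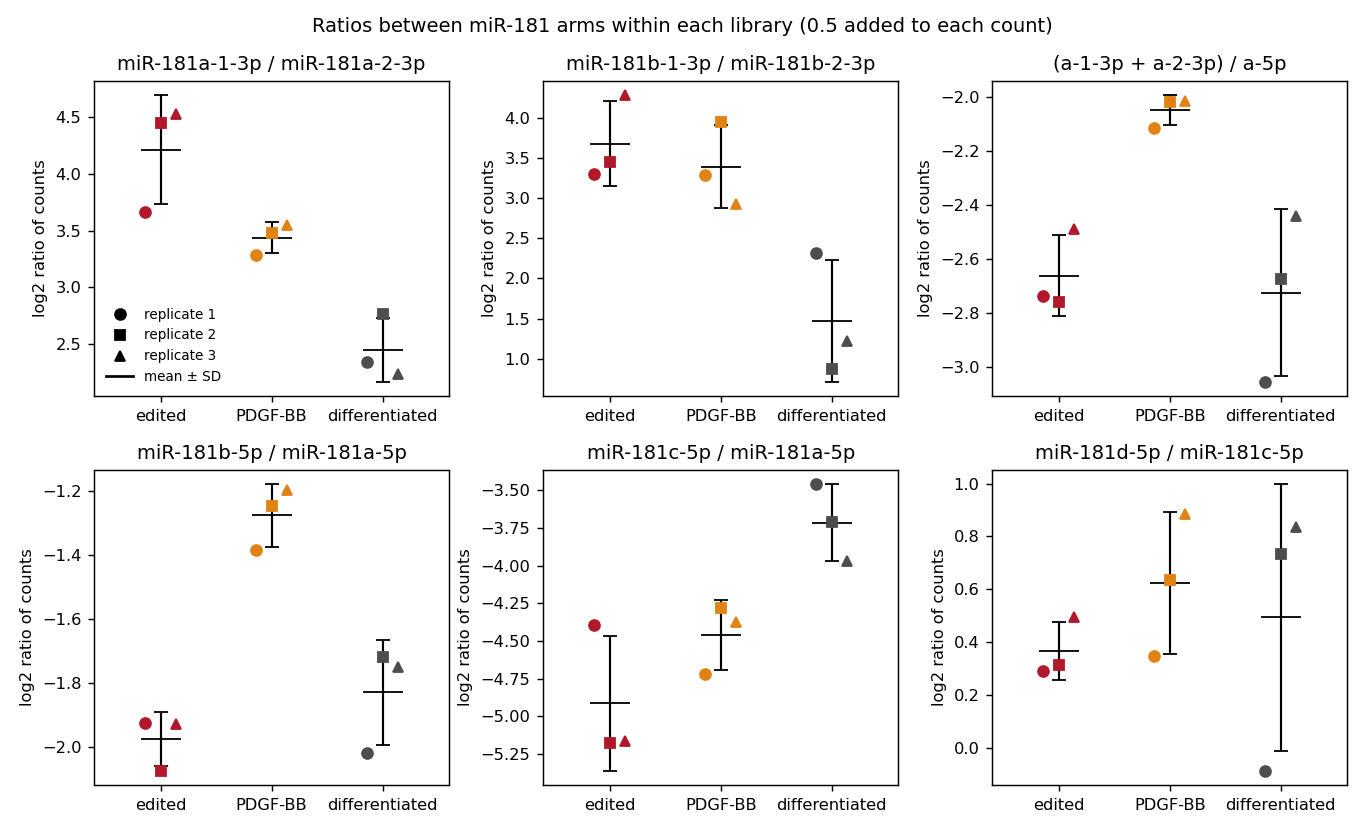
Log2 ratios of counts between miR-181 arms within each library (y axis, 0.5 added to each count, range set per panel). Points are libraries, marked by replicate, and bars are the mean ± SD of 3 libraries in edited, PDGF-BB and differentiated cells. The ratio of miR-181a-1-3p to miR-181a-2-3p has no overlap between groups, while that of miR-181d-5p to miR-181c-5p overlaps in all 3 comparisons.

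The passenger to guide ratio of miR-181a, with both its passengers summed, set PDGF-BB cells apart. It was 0.150, 0.148 and 0.178 in edited libraries, 0.231, 0.247 and 0.248 in PDGF-BB libraries, and 0.120, 0.157 and 0.184 in differentiated libraries. Edited and differentiated libraries overlapped, and the PDGF-BB libraries lay above both, with log2 differences of 0.68 ± 0.18 in PDGF-BB against differentiated and -0.61 ± 0.09 in edited against PDGF-BB cells (exact permutation p of 0.1 each). For miR-181b the ratio was 0.0896, 0.120 and 0.170 in edited, 0.103, 0.119 and 0.110 in PDGF-BB, and 0.0596, 0.0724 and 0.0903 in differentiated libraries, and there the edited libraries spread over a range that reached both other groups. For miR-181c the passenger was about as frequent as the guide, at ratios of 0.985 to 1.16 in edited, 0.783 to 0.982 in PDGF-BB and 0.562 to 1.09 in differentiated libraries.

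Among the guides, the ratio of miR-181b-5p to miR-181a-5p was 0.263, 0.237 and 0.262 in edited, 0.383, 0.421 and 0.437 in PDGF-BB, and 0.247, 0.303 and 0.297 in differentiated libraries. PDGF-BB libraries lay above all others, by 0.55 ± 0.11 on the log2 scale over differentiated cells, and edited cells lay below them by -0.70 ± 0.07 (exact permutation p of 0.1 each). The ratio of miR-181c-5p to miR-181a-5p was 0.0475, 0.0276 and 0.0279 in edited, 0.0379, 0.0513 and 0.0482 in PDGF-BB, and 0.0909, 0.0762 and 0.0638 in differentiated libraries. Differentiated libraries were the highest here. miR-181d-5p over miR-181c-5p, the pair from 1 locus, was 1.23 to 1.41 in edited, 1.27 to 1.85 in PDGF-BB and 0.943 to 1.78 in differentiated libraries and overlapped throughout. Its difference between groups lay between -0.26 ± 0.17 and 0.13 ± 0.33 on the log2 scale.

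Because the guides are near identical, their sum is the value least touched by how reads were assigned. The 4 guides summed to 596 ± 55.5 CPM in edited, 515 ± 27.3 CPM in PDGF-BB and 477 ± 58.7 CPM in differentiated cells (SD, n = 3 each), and all 9 arms to 697 ± 54.6, 624 ± 30.1 and 553 ± 53.2 CPM. The 3 groups overlapped in the sum of guides, at 538 to 649 CPM in edited, 493 to 545 CPM in PDGF-BB and 430 to 543 CPM in differentiated libraries. Counted as 1 feature, the guides had log2 fold changes of 0.33 ± 0.13 in edited against differentiated, 0.11 ± 0.13 in PDGF-BB against differentiated and 0.22 ± 0.13 in edited against PDGF-BB cells. The family took 0.0738% to 0.0966% of the counts in edited, 0.0576% to 0.0618% in PDGF-BB and 0.0442% to 0.0519% in differentiated libraries. These shares are of library totals, which moved the median change of all miRNAs by 0.45 in edited against differentiated cells. On the TMM scale all 9 arms summed to 641 to 750 CPM in edited, 601 to 658 CPM in PDGF-BB and 511 to 613 CPM in differentiated libraries. There the PDGF-BB range overlapped both others. The 95% Wilson intervals of these shares ran from 0.0718% to 0.0984%, from 0.0548% to 0.0644% and from 0.0415% to 0.0554%, and they cover counting error only.

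The make-up of the guides is given as shares of their summed counts. miR-181a-5p made up 75.1% ± 1.94 of the guide counts in edited, 65.4% ± 2.42 in PDGF-BB and 68.2% ± 1.98 in differentiated cells (SD, n = 3 each). miR-181b-5p made up 19.1% ± 0.748 in edited, 27.0% ± 0.857 in PDGF-BB and 19.2% ± 1.62 in differentiated cells. miR-181c-5p and miR-181d-5p together were the smallest portion in each group, with means of 2.55% and 3.27% in edited, 2.95% and 4.66% in PDGF-BB, and 5.22% and 7.35% in differentiated cells.

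Of the 5 passenger arms, those of the a-1/b-1 locus made up 71.8%, 82.3% and 83.7% of the counts in edited libraries, 80.9%, 81.5% and 79.2% in PDGF-BB libraries, and 61.3%, 59.6% and 61.3% in differentiated libraries. The 95% Wilson intervals over the 3 libraries of a group reached from 66.9% to 86.0% in edited, 74.9% to 85.7% in PDGF-BB and 51.8% to 70.0% in differentiated cells. The passengers of the a-2/b-2 locus made up 4.53% ± 1.01 in edited, 7.20% ± 0.606 in PDGF-BB and 12.02% ± 1.74 in differentiated cells, and miR-181c-3p of the c/d locus 16.2% ± 5.53, 12.3% ± 1.28 and 27.2% ± 2.48 (SD, n = 3 each). The other c/d passenger, miR-181d-3p, was not among the arms chosen and is left out of these shares. Its counts summed to 49 in edited, 10 in PDGF-BB and 17 in differentiated libraries. The a-1/b-1 portion was the largest in each library. The spread of the c/d portion in edited cells came with edited replicate 1, at 22.5% against 13.4% and 12.6% in replicates 2 and 3.

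**Figure D4:**
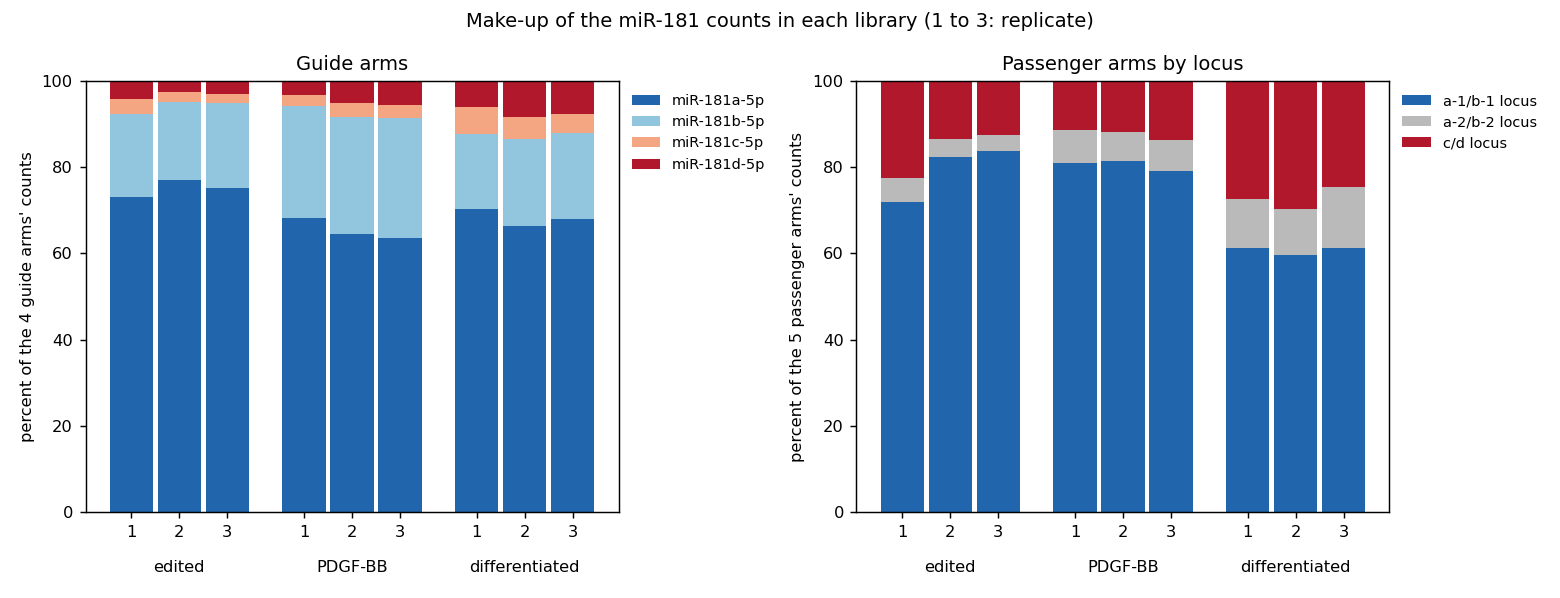
Make-up of the guide counts (left panel) and of the counts of the 5 passenger arms by locus (right panel), as percent in each library (y axis, bars stacked to 100), for replicates 1 to 3 of edited, PDGF-BB and differentiated cells. The a-1/b-1 portion of the passengers is 71.8% to 83.7% in edited and 79.2% to 81.5% in PDGF-BB libraries, above 59.6% to 61.3% in differentiated libraries. The c/d portion holds miR-181c-3p only, without miR-181d-3p.

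The likeness of 2 profiles was measured as the root mean square difference of log2 CPM over the 9 libraries, each profile centred on its own mean, which describes these libraries and says nothing of shared control. The 3 arms of the c/d locus lay 0.267 to 0.296 from each other and 0.668 to 1.11 from the passengers of the a-1/b-1 locus. Their distance was 0.391 to 0.492 from miR-181a-2-3p, 0.454 to 0.622 from miR-181a-5p and 0.537 to 0.620 from miR-181b-5p. miR-181a-1-3p lay 0.356 from miR-181b-1-3p and 0.186 from miR-181b-5p. Outside the family, miR-24-3p was nearest to miR-181a-5p (0.126), miR-872-3p to miR-181a-1-3p (0.155), miR-1839-5p to miR-181a-2-3p (0.133), miR-29a-3p to miR-181b-5p (0.151) and miR-29b-3p to miR-181b-1-3p (0.250). miR-196b-5p was nearest to miR-181c-5p (0.262), miR-10b-3p to miR-181c-3p (0.180) and miR-28-5p to miR-181d-5p (0.172). Each of these lay nearer to its c/d arm than the other c/d arms did. The median distance of a member to all other tested miRNAs was between 0.471 and 0.791. miR-29a-3p was also the third nearest to miR-181a-1-3p (0.213), and miR-872-3p the next nearest to miR-181b-5p (0.165), so those 2 members shared neighbours. So did miR-181c-5p and miR-181d-5p, with miR-196b-5p (0.262 and 0.181) and miR-664-2-5p (0.297 and 0.204).

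The miRNAs known from smooth muscle and from NF-kappaB signalling give the surroundings in which the family was measured. Of 24 tested arms of 28 on the list of smooth muscle phenotype miRNAs, 3 rose and 18 fell in edited against differentiated cells, 5 rose and 4 fell in PDGF-BB against differentiated cells, and 4 rose and 20 fell in edited against PDGF-BB cells. Of all tested miRNAs, 32.2% rose and 27% fell in the first of these comparisons, 7.24% and 2.96% in the second, and 28% and 30.9% in the third. The median log2 fold changes of the list were -1.44, 0.22 and -1.70, beside -0.01, 0.03 and -0.02 over all tested miRNAs. In edited against differentiated cells miR-1-3p, a muscle miRNA, fell by 5.75 ± 0.69 on the log2 scale (edgeR adjusted p = 0.000139), and miR-146b-3p rose by 3.16 ± 0.30 (edgeR adjusted p = 2.67e-05). In PDGF-BB against differentiated cells miR-145-3p fell by 0.72 ± 0.12 (edgeR adjusted p = 0.00888), and miR-222-5p rose by 2.45 ± 0.32 (edgeR adjusted p = 0.00280). Of 8 tested arms of 11 on the NF-kappaB-linked list, 5 rose and 3 fell in edited against differentiated cells, 3 rose and 0 fell in PDGF-BB against differentiated cells, and 4 rose and 3 fell in edited against PDGF-BB cells, to be read against the same shares. miR-146b-5p, whose family dampens NF-kappaB signalling, rose by 2.80 ± 0.29 in edited against differentiated cells (edgeR adjusted p = 5.65e-05), while miR-146a-5p fell by 3.81 ± 0.52 (edgeR adjusted p = 0.000270). All 4 smooth muscle marker arms fell in edited cells against either other group, and 3 of 4 fell in PDGF-BB against differentiated cells. Of the other cell types' markers, 2 of 2 endothelial arms and 1 of 3 tested blood cell arms rose in edited against differentiated cells, where 32.2% of all tested miRNAs rose and 27% fell. Among 5 epithelial arms 2 rose and 3 fell there, and 2 of 3 tested neural arms rose. These 4 lists had the same counts in edited against PDGF-BB cells, and in PDGF-BB against differentiated cells 1 epithelial arm, miR-200a-3p, fell and no other arm of them passed.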

How the data were processed

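Small RNA was sequenced as single reads of 75 nt from QIAseq small RNA libraries of total RNA, planned at 30 M reads each, per the labels' protocols. The authors deposited whole-number counts for each mature rat miRNA, with nothing normalized. Rnor_6.0 is the genome build that the submitters' processing notes name. The sources used here do not name the aligner, counting tool or miRBase release, or say whether molecular identifiers were used. A count may be a read or a molecule, so intervals and floors (3 counts) cover counting error only.

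Samples were grouped by their titles, and all columns of the table matched a sample. All 9 libraries entered 1 edgeR 4.0.16 model (R 4.3.3) with 1 mean for each group, TMM factors (1.15 to 1.29 in edited, 0.912 to 1.03 in PDGF-BB and 0.847 to 0.913 in differentiated libraries) and the edgeR filter with its minimum of 10 counts, which kept 304 miRNAs and left out 198 with a count and 260 with none. The common biological coefficient of variation was 0.179. The SE was taken from the log2 fold change and the square root of its F statistic. Changes relative to 1 arm used the log of its counts as offset and the other 303 miRNAs for the adjustment. Replicates of 1 group differed by more than sampling noise (chi-square per degree of freedom 15 to 576), and each was kept as a sample. The edgeR steps were tested on simulated data.

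The members, lists and tests were chosen with earlier results of these data known. All 9 members are named, with the nearest miRNAs by likeness and at most 2 that rose and 2 that fell from each list. Alternatives were RLE factors, library totals, no filter, summed guides, the compared libraries alone, a replicate block, DESeq2 1.42.0, other additions to ratios and each library left out. Sequences came from RefSeq tables of GRCr8, a build other than that of the counts, so no coordinates are printed.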

Additional observations from a re-analysis of the deposited data

How the results depend on the processing

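Library totals in place of TMM factors left 4 miR-181 arms past the threshold in edited against differentiated cells (4 higher, 0 lower) where TMM gave 7, and 1 in edited against PDGF-BB cells where TMM gave 3, and they turned miR-181b-5p in the second comparison to 0.0299. In edited against PDGF-BB cells 1 arm also passed without a filter on low counts and 1 with DESeq2. Counting the 4 guides as 1 feature, which leaves the 4 tested passengers as members by construction, gave 3 calls in edited against differentiated and 1 in edited against PDGF-BB cells. DESeq2 called 49 miRNAs in PDGF-BB against differentiated cells (24 higher, 25 lower), against 31 with edgeR. Equal replicate numbers are not said to share a source, and 4 of 9 such pairs of libraries deviated together with a correlation over 0.1, the highest correlation (0.52) lying between unlike numbers. With a replicate block, 2 arms passed in PDGF-BB against differentiated cells relative to miR-181a-5p and 2 relative to miR-181a-2-3p, where 1 did without it.

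Leaving out 1 library at a time gave 3 to 53 miRNAs and 1 to 4 arms in PDGF-BB against differentiated cells, 139 to 207 and 3 to 8 in edited against differentiated cells, and 145 to 198 and 0 to 3 in edited against PDGF-BB cells. In PDGF-BB against differentiated cells the 3 miRNAs and the 1 arm were those left without differentiated replicate 3, and the 53 those without edited replicate 1. In edited against differentiated cells 3 arms were left without edited replicate 2 or differentiated replicate 2 and 4 without differentiated replicate 3. In edited against PDGF-BB cells 0 were left without edited replicate 2 or PDGF-BB replicate 2. Relative to miR-181a-5p the arms past the threshold numbered 0 to 2 in PDGF-BB against differentiated, 3 to 5 in edited against differentiated and 2 to 4 in edited against PDGF-BB cells, and relative to miR-181a-2-3p 0 to 2, 4 to 5 and 2 to 6. A replicate block cannot alter the ratio differences, because each group holds each replicate number once. With each other addition to the counts these differences kept their sign in 27 of 27. Without edited replicate 3 they did so in 14 of 18 and without differentiated replicate 1 in 15 of 18. The cause of these changes was not tested. Depth limits the rarer passengers, with 1 to 17 counts per library for miR-181b-2-3p, 7 to 191 for miR-181b-1-3p and 11 to 47 for miR-181a-2-3p.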

Other observations

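miR-181d-3p, the passenger arm of Mir181d, was in the table but not among the arms chosen. It had 9, 26 and 14 counts in edited libraries, 0, 2 and 8 in PDGF-BB libraries, and 2, 11 and 4 in differentiated libraries. In CPM this was 1.65 to 2.49 in edited, 0 to 2.18 in PDGF-BB and 1.32 to 3.13 in differentiated libraries, so that the groups overlapped. The 0 of 1982051 counts in PDGF-BB replicate 1 allow a level of up to 1.51 CPM before TMM scaling.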
